A study of Mus musculus with 4 samples.

Results

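Cycling neutrophil precursors were examined among cells sorted for tomato (Td) fluorescence from the endosteal bone marrow of Col2:Td mice. The cells were chosen by measured values: 200 to 6000 detected genes, at most 5% of UMIs (unique molecular identifiers, each counting 1 captured RNA molecule) from mitochondrial genes, at least 100 UMIs of Camp, Ngp and Chil3 together per 10000, at least 3 UMIs of Mki67 and Top2a together, and fewer than 50 UMIs of Elane, Mpo, Prtn3 and Ctsg together per 10000. The rule was applied to the 1 month and 3 month libraries and selected 1093 cells, 952 at 1 month and 141 at 3 months, of 12488 cells that passed the filter in these libraries and of 24084 in all 4 libraries of the series. The single-cell libraries came from male B6SJL/F1 mice that carried Col2-Cre and a Cre-dependent tomato at Rosa26, with 2 mice pooled at 1 month and 3 mice pooled at each of 1.5, 3 and 16 months. Every library held the same genotype and cells sorted for Td, so there was no untreated or unlabelled group. The paper describes the sorted cells as the brightest 1%, while its methods also allow the Td peak where one was visible. A sort that differed between libraries thus remains possible. The Cre is driven by the Col2 promoter, which is used to reach chondrocytes and the bone and stroma cells that come from them, so blood cells are not its intended target. With 1 library per age and pooled mice, no test between conditions was possible, age and library cannot be told apart, and cells of 1 library are not replicates. All intervals are 95% intervals that cover counting error only.

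Neutrophils are made in the bone marrow from dividing progenitors that pass through promyelocyte and myelocyte stages before division stops and the nucleus becomes segmented. Their granule proteins are made in a set order: primary granule proteases and myeloperoxidase first, then specific granule proteins such as lactoferrin and cathelicidin, then gelatinase granule proteins, and the receptors of the mature cell last. Cells that make specific granule genes and still divide are the myelocyte-like step of this order. Among the marker genes, Camp encodes the cathelicidin precursor, Ngp a neutrophilic granule protein related to it, Chil3 a chitinase-like secreted protein, Mki67 the proliferation antigen Ki-67 and Top2a the topoisomerase that untangles replicated DNA. In the GRCm38 annotation Camp lies at chr9:109847379-109849617, Ngp at chr9:110419747-110423012, Chil3 at chr3:106147554-106167564, Mki67 at chr7:135689784-135716361 and Top2a at chr11:98992943-99024189.

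The precursors were set beside other cells of the same library. Non-cycling neutrophils passed the same limits on granule and primary granule genes and had 0 UMIs of Mki67 and Top2a, and numbered 842 at 1 month and 295 at 3 months. Cycling Elane Mpo progenitors had at least 50 primary granule UMIs per 10000 and at least 3 Mki67 and Top2a UMIs, and numbered 612 and 117. Of these, 266 at 1 month and 26 at 3 months also passed the granule limit of the rule. Mesenchymal cells outside the gates, 1538 and 2100 cells with at least 200 UMIs of chondrocyte, osteoblast and stroma genes per 10000, gave the level that free RNA brings to cells that do not make neutrophil genes. Median depth was 17311 UMIs in precursors at 1 month and 10431 at 3 months, against 7312 and 4532 in non-cycling neutrophils and 25304 and 16348 in progenitors. The precursors were thus deeper than the non-cycling cells in both libraries, and a limit of 3 UMIs is reached more easily in a deeper cell.

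Levels are CPM, which are UMIs of a gene divided by all UMIs of a group of cells and scaled to 1000000, and folds are ratios of CPM. The 32 genes of the calgranulin, specific granule and primary granule lists took 39.2% of all precursor UMIs at 1 month and 46.1% at 3 months. Their share was 41.8% and 46.0% in non-cycling neutrophils but 14.3% and 10.3% in progenitors. The UMIs of all other genes were thus a smaller share of the total in precursors than in progenitors, which lowers their CPM, and ratios against progenitors are also given on the scale of the UMIs outside these lists.

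**Figure D1:**
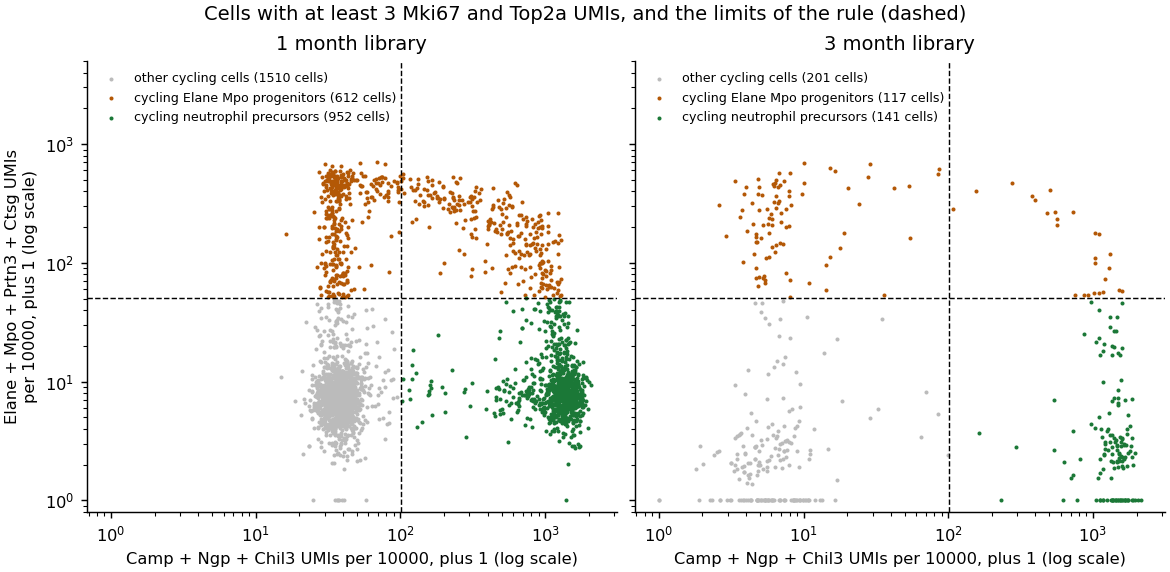
Each point is 1 cell with at least 3 Mki67 and Top2a UMIs in the 1 month (left) or 3 month (right) library, placed by its Camp, Ngp and Chil3 UMIs (x axis) and its Elane, Mpo, Prtn3 and Ctsg UMIs (y axis), both per 10000 plus 1 on log scales, with the limits of the rule dashed. The 952 and 141 precursors fill the lower right field and the 612 and 117 Elane Mpo progenitors the upper fields. The progenitors extend along the top to 1293 and 1586 on the x scale per 10000, short of the highest precursors (2089.7 and 2130.2).

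The precursors lay far inside the granule limit. Their Camp, Ngp and Chil3 UMIs per 10000 had a median of 1315 at 1 month (lowest 101, highest 2089.7) and 1432 at 3 months (lowest 161, highest 2130.2). Between 100 and 150 per 10000 there were 10 precursors at 1 month and 0 at 3 months, and between 50 and 100, just outside, 92 and 4 cycling cells. The 1510 and 201 cycling cells that were neither precursors nor progenitors had a median of 36.7 and 4.66 per 10000, next to 34.3 and 4.56 in the mesenchymal cells. The base level was higher in the 1 month library.

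The cycle limit cut through a continuous range. Precursors had a median of 10 Mki67 and Top2a UMIs at 1 month (highest 55) and 5 at 3 months (highest 16). At 1 month 56 cells stood at exactly 3 UMIs and 77 at 2, and at 3 months 42 stood at 3 and 35 at 2. Near the primary granule limit, 18 precursors at 1 month and 2 at 3 months had 40 to 50 UMIs per 10000, and 11 and 8 granule-gated cycling cells had 50 to 60.

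Precursors were 38.8% of granule-gated cells at 1 month (36.9% to 40.8%, exact binomial, 952 of 2454) and 25.7% at 3 months (22.1% to 29.6%, 141 of 548). After every cell was thinned to 3000 UMIs, the share of granule-gated, low primary cells with at least 1 UMI of Mki67 or Top2a was 41.3% at 1 month and 32.1% at 3 months, against 60.8% and 40.9% before thinning. The same share in mesenchymal cells was 12.3% and 4.74% (36.9% and 8.14% before thinning). Some mesenchymal cells held many Mki67 and Top2a UMIs (highest 37 and 19), so their share does not measure free RNA alone. The 1 month library thus kept the larger share of granule-gated cells at matched depth, beside a larger mesenchymal share.

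Neutrophil genes that the rule did not use were also present. Ltf, which encodes the iron-binding granule protein lactoferrin, was at 8627 CPM in precursors at 1 month and 8414 at 3 months, and Lcn2, which encodes the iron-siderophore binding protein lipocalin 2, at 14188 and 9162. Mesenchymal cells of the same libraries had 296 and 36.7 CPM of Ltf and 564 and 45 of Lcn2. Cebpe, the transcription factor that switches on specific granule genes, was at 442 and 455 CPM against 18.2 and 2.22. At 3000 UMIs per cell, a Cebpe UMI was found in 67.1% and 58.6% of precursors (96.8% and 92.2% before thinning) and in 4.75% and 0.648% of mesenchymal cells (20.9% and 1.67%). The mesenchymal cells were chosen below the granule limit, so these contrasts follow in part from the rule. Non-cycling neutrophils had 10449 and 10647 CPM of Ltf and 17247.5 and 11113 of Lcn2. These 2 genes thus describe neutrophils and do not tell dividing ones from the rest. Kit and Cd34, surface proteins of earlier progenitors, had a UMI in 0.21% and 1.58% of thinned precursors at 1 month and in 1.43% and 0% at 3 months.

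The promoters of some cycle and granule genes measured in these cells are shown with the short motifs found in them. Each line gives the 150 bases before the RefSeq start of the gene, 5′ to 3′ on the gene's strand in GRCm38.p6, with motif matches in capitals. The capitals mark every match of the CHR element (TTTGAA), the CCAAT box (CCAAT), the E2F motif (TTTGGCGC or TTTCCCGC) and the C/EBP motif (TTGCNNAA), each read on either strand.
Cdk1, chr10:69352913-69353062, minus strand: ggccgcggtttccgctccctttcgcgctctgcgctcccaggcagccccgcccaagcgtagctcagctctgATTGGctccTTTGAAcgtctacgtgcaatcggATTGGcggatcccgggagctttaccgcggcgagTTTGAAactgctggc
Ube2c, chr2:164769779-164769928, plus strand: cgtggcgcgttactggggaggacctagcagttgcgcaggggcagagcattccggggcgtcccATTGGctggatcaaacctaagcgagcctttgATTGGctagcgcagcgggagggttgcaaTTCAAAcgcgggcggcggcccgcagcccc
Cdkn3, chr14:46760391-46760540, plus strand: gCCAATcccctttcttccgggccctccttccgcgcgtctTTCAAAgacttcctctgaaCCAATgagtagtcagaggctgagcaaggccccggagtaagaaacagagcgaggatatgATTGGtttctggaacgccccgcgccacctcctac
Mcm5, chr8:75109359-75109508, plus strand: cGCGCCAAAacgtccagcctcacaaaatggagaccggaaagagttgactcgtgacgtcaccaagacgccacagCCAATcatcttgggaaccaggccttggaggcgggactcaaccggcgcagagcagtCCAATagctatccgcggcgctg
Ltf, chr9:111019142-111019291, plus strand: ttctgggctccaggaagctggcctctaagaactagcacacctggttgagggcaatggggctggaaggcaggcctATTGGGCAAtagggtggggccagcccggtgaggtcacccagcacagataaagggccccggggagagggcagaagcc
Ngp, chr9:110419658-110419807, plus strand: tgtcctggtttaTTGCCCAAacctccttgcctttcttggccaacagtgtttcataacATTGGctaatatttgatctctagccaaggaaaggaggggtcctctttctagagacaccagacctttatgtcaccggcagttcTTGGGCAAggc
Fcnb, chr2:28084879-28085028, minus strand: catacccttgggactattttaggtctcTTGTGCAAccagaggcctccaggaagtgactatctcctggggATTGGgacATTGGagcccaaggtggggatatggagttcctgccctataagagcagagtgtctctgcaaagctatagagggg

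Cdk1, the kinase that drives entry into mitosis, has 2 CHR matches and 2 CCAAT boxes in this window, and Ube2c, which serves the ubiquitin ligase that ends mitosis, has 1 and 2. Mcm5, a subunit of the replicative helicase, has 1 E2F match and 2 CCAAT boxes. Ltf holds 1 C/EBP match and 1 CCAAT box, Ngp 2 and 1, and Fcnb 1 and 2. The RefSeq start of Ngp lies inside the span given above for this gene, so 1 of its 2 C/EBP matches lies within that span. The C/EBP match of Ltf shares letters with a CCAAT box on the other strand. Over the whole window from 250 bases before to 50 after the start, 33 of the 47 G2/M genes with a RefSeq promoter held a CHR match (70.2%), against 20.2% of 27025 genes. E2F matches were in 10 of 31 S phase genes (32.3%) against 1.8% of all genes, and in 4.26% of G2/M genes. C/EBP matches were in 5 of 15 specific granule genes (33.3%) and 3 of 21 mature neutrophil genes (14.3%), against 12.2% of all genes. CCAAT boxes were in 76.6% of G2/M, 71% of S phase, 53.3% of specific granule and 52.4% of mature neutrophil genes and in 41.1% of all genes, and CHR matches in 19.4%, 20% and 19% of the last 3 lists. The C/EBP share was 6.38% for G2/M and 6.45% for S phase genes, and 0 specific granule and 0 mature neutrophil genes held an E2F match. A match is a description of the letters in the window.

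Against non-cycling neutrophils of the same library, genes of DNA replication and mitosis were high in precursors. Of 1708 genes with at least 50 CPM in the higher group in both libraries, 170 were at least 2-fold higher in precursors in both (9.95%) and 57 at least 2-fold lower in both (3.34%). Because Mki67 and Top2a chose both groups, these counts describe the gate and carry no test. All 11 measured S phase genes and 24 of 26 measured G2/M genes were past 2-fold, with Mki67 and Top2a among the latter and 22 of 24 without them. The median log2 ratio was 2.77 and 2.84 for S phase genes and 2.80 and 3.74 for the other G2/M genes, at 1 and 3 months, against 0.12 and 0.12 over all measured genes.

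Among the genes of S phase, Rrm2, a subunit of the enzyme that makes deoxyribonucleotides, was at 316 CPM in precursors and 18.8 in non-cycling cells at 1 month, a ratio of 16.8 (14.2 to 20.1). At 3 months Rrm2 was at 289 and 13.4, a ratio of 21.5 (13.9 to 35.1). Tyms, which makes thymidylate, was 10.7-fold and 10.3-fold higher, Mcm5 6.80-fold and 8.45-fold, and Pcna, the sliding clamp of DNA polymerase, 5.82-fold and 3.32-fold. Slbp, which processes histone messages, was 3.59-fold and 3.47-fold higher. Levels of Rrm2 and Pcna in the non-cycling cells were below those of the mesenchymal cells, 26.7 and 16.4 CPM of Rrm2 and 36.5 and 48.3 of Pcna.

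Genes of mitosis were also high in precursors. Cdk1 was at 190.4 CPM in precursors and 9.99 in non-cycling cells at 1 month (19.1-fold, 15.1 to 24.4) and at 181 and 1.28 at 3 months, where the lower value rests on 2 UMIs and the ratio was 141 (38.8 to 1173). Ube2c was at 451 and 29.98 CPM at 1 month and at 646 and 13.4 at 3 months, ratios of 15.1 and 48.2. Nusap1, which bundles spindle microtubules, was 19.1-fold and 33.8-fold higher, and Birc5, the survivin subunit of the chromosomal passenger complex, 11.2-fold and 17.2-fold. These ratios were larger at 3 months for all 4 genes, beside a level in mesenchymal cells that was higher at 1 month (53.4 against 26 CPM of Ube2c), whose part in the difference was not tested. At 3000 UMIs per cell a Ube2c UMI was present in 58.7% and 72.1% of precursors and 9.62% and 3.23% of non-cycling cells (before thinning 88.2% and 89.4%, and 22% and 4.75%).

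The genes with the largest ratios in both libraries were Fbxo5, Nusap1, Cdk1, 2810417H13Rik, Asf1b, Rrm2, Prc1, Smc2, Spc25 and Pbk. Fbxo5, which encodes the inhibitor Emi1 of the mitotic ubiquitin ligase, had 90.02 and 54.7 CPM in precursors and 4.11 and 1.28 in non-cycling cells, the last from 2 UMIs (ratio 42.8, 11.5 to 359). Asf1b, a histone chaperone, had 4.08 and 4.18 on the log2 scale, Prc1, which organises the spindle midzone, 4.07 and 4.50, and Smc2, a condensin subunit, 4.01 and 4.15. Log2 ratios were 3.95 and 4.29 for the kinetochore gene Spc25, 3.94 and 5.05 for the mitotic kinase gene Pbk, and 4.16 and 4.26 for 2810417H13Rik.

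**Figure D2:**
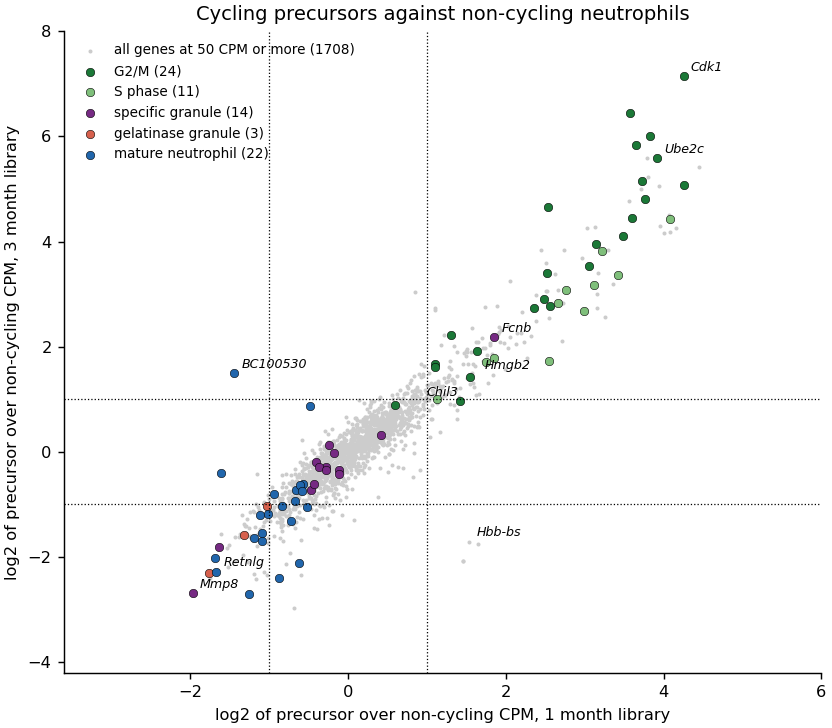
Each point is 1 of 1708 genes, placed by its log2 ratio of precursor over non-cycling CPM in the 1 month (x axis) and 3 month (y axis) library; dotted lines mark 2-fold, and colours mark gene lists without the 9 genes of the rule. S phase and G2/M genes lie to the upper right, gelatinase granule and mature neutrophil genes mostly to the lower left, and the hemoglobin genes and BC100530 have opposite signs in the libraries.

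Cyclins of S phase, G2 and mitosis were high in the precursors. Of 7 measured genes of this list, Ccna2, Ccnb1, Ccnb2 and Cdk1 were past 2-fold over non-cycling cells (9.95% of all genes were) and 0 were lower. Ccna2, the cyclin of S phase and G2, was at 124 and 95.8 CPM in precursors against 8.90 and 2.56, and Ccnb1, the mitotic cyclin, at 73.5 and 92.6 against 5.34 and 1.92. Ccne2, a cyclin of S phase entry, was below the minimum level for a call, with 45.6 and 28.3 CPM against 2.33 and 3.20. The D-type cyclin gene Ccnd3 had 370.4 and 327 CPM in precursors and 318 and 209.7 in non-cycling cells, and did not differ by 2-fold. Ccnd1 and Ccnd2 had 4.57 and 17.7 CPM at 1 month and 1.93 and 12.9 at 3 months, below the mesenchymal 34.1 and 148 and 40.7 and 92.8. The G1 kinases Cdk4 and Cdk6 were lower in precursors than in progenitors, at 61 against 257 CPM of Cdk4 and 23.4 against 149.9 of Cdk6 at 1 month and at 38.6 against 312 and 27.7 against 241 at 3 months. On the scale of the UMIs outside the granule lists, the log2 ratio to progenitors was -1.58 and -2.28 for Cdk4 and -2.19 and -2.39 for Cdk6, the same direction.

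Inhibitors of the G1 kinases were present in the dividing cells. Cdkn2d, which encodes the INK4 inhibitor p19, was at 204 and 203 CPM in precursors, 149 and 105 in non-cycling cells and 99.9 and 73.2 in progenitors, past 2-fold over the last. Cdkn2c, the related inhibitor p18, was at 37.3 and 52.7 CPM against 3.15 and 8.95 in non-cycling cells and 13.4 and 25.6 in progenitors. At 3000 UMIs, a Cdkn2c UMI was in 11% of precursors at 1 month and 13.6% at 3 months, in 0.95% and 0.806% of non-cycling cells and in 5.53% and 9.38% of mesenchymal cells (before thinning 47.8% and 41.8%, 2.73% and 3.73%, and 19% and 19.6%). E2f2, a transcription factor of the cycle below the minimum level for a call, was at 43.6 and 34.7 CPM in precursors and 21 and 12.5 in progenitors.

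Granule genes were read over progenitors, precursors and non-cycling neutrophils in the order in which their proteins are made. The primary granule genes of the rule, Elane, Mpo, Prtn3 and Ctsg, summed to 28460.4 CPM in progenitors, 1019 in precursors and 610.1 in non-cycling cells at 1 month, and to 26316, 624 and 111 at 3 months. The mesenchymal cells had 610.1 and 103 CPM of the same genes, so the non-cycling level stood near the mesenchymal level in both libraries. The excess of precursors over it was mostly in Elane, the neutrophil elastase (427 against 240.4 CPM at 1 month, 343 against 41.9 at 3 months), and Prtn3, proteinase 3 (322 against 145, and 188 against 21.4). Mpo, the myeloperoxidase, was at 168 against 139 CPM and 50.8 against 27.5.

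Ms4a3 and Prss57, promyelocyte genes outside the rule, were lower at each step from progenitors to precursors and non-cycling cells. Ms4a3, a membrane protein of granulocyte and monocyte progenitors, was at 1329 CPM in progenitors, 215 in precursors and 58.2 in non-cycling cells at 1 month and at 1342, 259 and 37.7 at 3 months. Prss57, a primary granule serine protease, was at 344, 47 and 13.4 CPM and at 285, 40.5 and 8.31. Both genes thus kept a level in precursors above that of non-cycling and mesenchymal cells (31.2 and 6.09 CPM of Ms4a3) and several-fold below that of progenitors. Calr, which encodes the chaperone calreticulin, was 8.41-fold and 14-fold higher in progenitors, with 181 and 111 CPM in precursors against 184 and 174 in non-cycling cells. All 10 measured genes of the primary granule and promyelocyte list, Calr among them, were at least 2-fold lower in precursors than in progenitors in both libraries, and the share of all 2237 genes lower at that size was 26.5%, with 5.05% higher. Without the 4 genes of the rule it was 6 of 6. These 4 genes chose both groups, so the counts describe the gate and carry no test. Of the 10 genes, 7 had at least 50 CPM in precursors in both libraries. The sum of the list without these 4 genes was 6713 CPM in progenitors, 1107 in precursors and 1430.5 in non-cycling cells at 1 month, and 6764, 857 and 1129.6 at 3 months. The sum was thus higher in non-cycling cells than in precursors, as was Srgn, which encodes the granule proteoglycan core serglycin, with 2465, 553 and 1095 CPM in the 3 groups at 1 month and 2281, 344 and 853 at 3 months.

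Specific granule genes were near the non-cycling level in the dividing precursors. Ltf was at 1024 CPM in progenitors, 8627 in precursors and 10449 in non-cycling cells at 1 month, and at 244, 8414 and 10647 at 3 months. The step from progenitors was 8.43-fold (8.29 to 8.56) and 34.5-fold (31.5 to 37.9), while the precursor level was 0.826 (0.819 to 0.833) and 0.79 (0.772 to 0.809) times that of non-cycling cells. Lcn2 gave 6.59-fold and 15.1-fold over progenitors and 0.823 and 0.824 times the non-cycling level, and Cd177, a neutrophil surface glycoprotein of these granules, 6.09-fold and 12.5-fold, and 0.845 and 1.09. The levels in precursors and non-cycling cells were thus close for these genes in both libraries. Orm1, an acute phase plasma glycoprotein, was 1.33 and 1.26 times the non-cycling level, and Pglyrp1, a peptidoglycan-binding protein, 0.886 and 0.984 times. Of 14 measured specific granule genes outside the rule, 11 were at least 2-fold higher than in progenitors and 0 lower, against 5.05% and 26.5% of all 2237 genes. All precursors had to pass the limit on Camp, Ngp and Chil3, which 266 of 612 and 26 of 117 progenitors passed. The count thus describes the gate and carries no test. Their median log2 ratio was 2.05 and 2.82 against -0.51 and -0.75 over all these genes.

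Of 17 measured genes of the specific granule list, 1 was at least 2-fold higher and 2 were lower in precursors than in non-cycling cells. Of all 1708 genes, 9.95% were higher and 3.34% lower. Fcnb, which encodes the lectin ficolin B, was at 928 CPM in precursors and 257 in non-cycling cells at 1 month (3.61-fold, 3.44 to 3.79) and at 1239 and 273 at 3 months (4.54-fold, 4.08 to 5.05), and progenitors had 1117 and 777. Mmp8, the neutrophil collagenase, was higher at each step, with 67.8, 280.2 and 1097 CPM at 1 month and 8.53, 109.98 and 711 at 3 months. Ceacam10 was at 89.4 and 55.3 CPM in precursors and 279 and 193 in non-cycling cells. Olfm4 was at 1.13 and 3.86 CPM, below the minimum level for a call. At 3000 UMIs, a Mmp8 UMI was found in 34.5% and 10.7% of precursors, 76.1% and 53.6% of non-cycling cells and 7.15% and 0.848% of mesenchymal cells (before thinning 63.6% and 21.3%, 82.9% and 64.1%, and 25.9% and 1.76%), and a Fcnb UMI in 80.3% and 80%, 31.9% and 36.3%, and 10.1% and 1.45% (96.3% and 92.2%, 53.9% and 39.3%, and 34.7% and 3.38%).

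**Figure D3:**
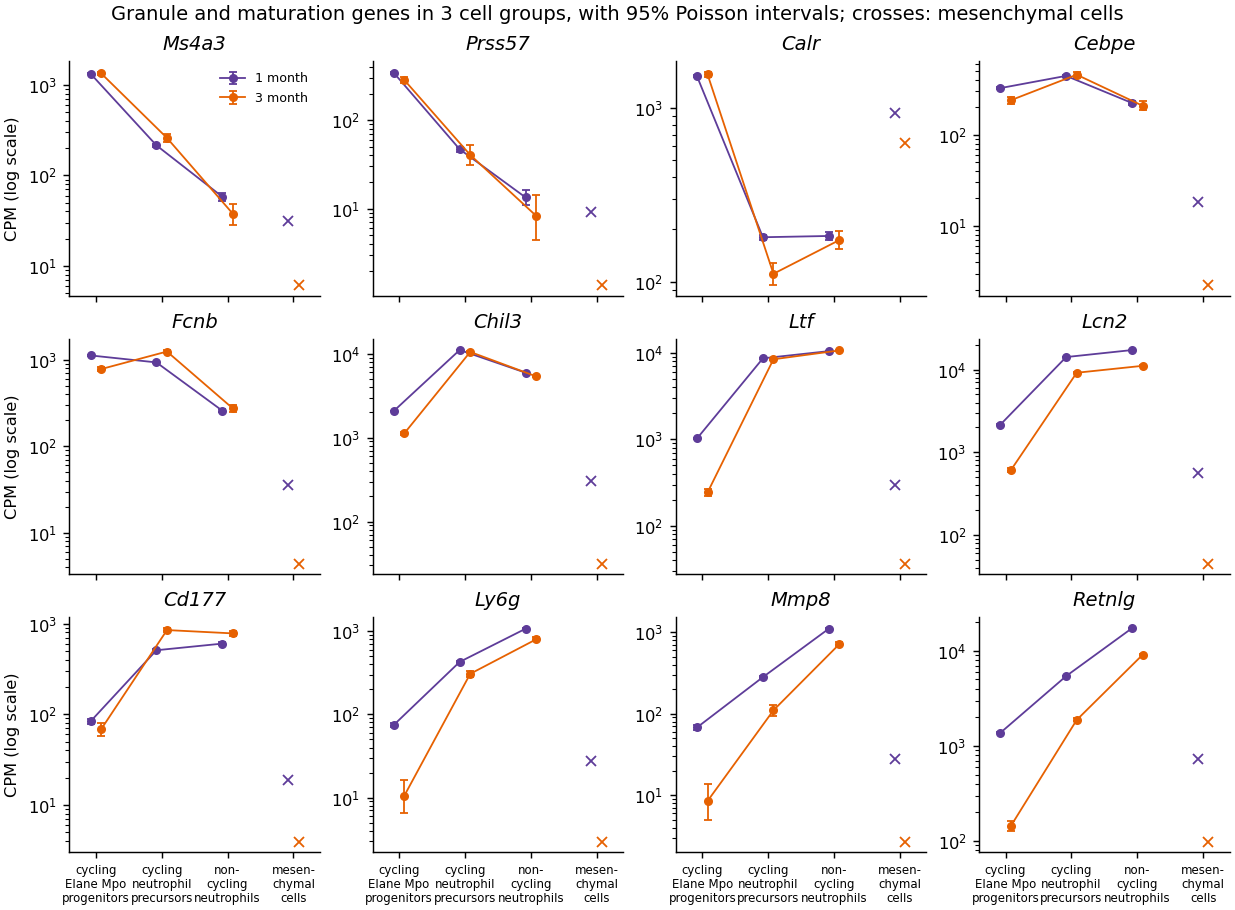
CPM on a log scale of 12 genes in cycling Elane Mpo progenitors, cycling neutrophil precursors and non-cycling neutrophils of the 1 month and 3 month libraries, with 95% Poisson intervals (counting error only), and crosses for mesenchymal cells. Ms4a3 and Prss57 are lower at each step, Chil3 is highest in the middle group, Ltf and Lcn2 are near the non-cycling level in the precursors, and Ly6g, Mmp8 and Retnlg are highest in the non-cycling cells.

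Genes of gelatinase granules and of the mature cell were lower in precursors. All 3 measured gelatinase granule genes, Mmp9, Adam8 and Cfp, were at least 2-fold lower than in non-cycling cells (3.34% of all 1708 genes were). Mmp9, the gelatinase itself, was at 179 CPM in precursors and 606 in non-cycling cells at 1 month (3.39-fold higher in the latter) and at 97.1 and 482 at 3 months (4.96-fold). Its level in precursors was still above the 37.9 and 24.2 CPM of mesenchymal cells and the 40.3 and 14 of progenitors. Of 22 measured mature neutrophil genes, 8 were at least 2-fold lower in both libraries and 0 higher, against 3.34% and 9.95% of all genes. In precursors, 15 of the 22 and 2 of the 3 gelatinase granule genes had at least 50 CPM in both libraries. The others reached the minimum in at least 1 library only through the non-cycling cells, so these counts are descriptions. The 8 were Retnlg, Ccl6, Fpr1, Fpr2, Clec4d, Il1r2, Trem1 and Slpi. Retnlg, a resistin-like secreted protein, was at 5419 against 17293 CPM and 1873 against 9076. The formyl peptide receptor gene Fpr2 was at 92.3 against 197 and 72 against 233. The chemokine receptor gene Cxcr2 did not reach the minimum level in both libraries, with 27 against 65.4 and 14.1 against 35.8 CPM.

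The other genes with the largest ratios in this direction were Acvrl1, Gm5483, S100a6, Thbs1 and Il1rn, beside Mmp8, Mmp9, Fpr1, Retnlg and Ceacam10. Acvrl1, a receptor of the TGF-beta family, was at 36.5 against 123 CPM and 11.6 against 61.4. The adhesive glycoprotein gene Thbs1 was at 117 against 338 and 76.5 against 351, and the calgranulin relative S100a6 at 941 against 2723 and 612 against 2175. Mesenchymal cells had 112 and 146 CPM of Thbs1 and 1005 and 636 of S100a6, near or above the precursor level. Gm5483, a stefin-like gene of a cluster of near-identical copies, is uncertain, and at 3 months 90% of its 40 precursor UMIs lay in 5 cells. S100a8 and S100a9, the calgranulins that together bind zinc and calcium, did not differ by 2-fold, at 0.881 and 0.869 times the non-cycling level at 1 month and 0.991 and 0.981 times at 3 months.

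Among receptors, oxidase genes and transcription factors, several stood between the levels of the other groups. Ly6g, the antigen of the neutrophil antibody, was at 74.7 CPM in progenitors, 428 in precursors and 1071 in non-cycling cells at 1 month and at 10.5, 307 and 798 at 3 months. Itgam and Itgb2, the chains of the integrin Mac-1, were 2.54-fold and 2.26-fold higher in precursors than in progenitors at 1 month and 4.92-fold and 4.25-fold at 3 months. The retention receptor Cxcr4 was at 22.2 and 52.7 CPM in precursors, 29 and 63.9 in non-cycling cells and 23.6 and 51.7 in progenitors, and these values did not separate the groups by 2-fold. Csf3r, the receptor of the granulocyte growth factor, was at 44.6 and 27.7 CPM against 63.8 and 57.5 in non-cycling cells. Of the NADPH oxidase genes, Cybb, Cyba, Ncf1, Ncf4 and Rac2 were not past 2-fold from non-cycling cells in both libraries, and Cybb, the catalytic subunit, was 3.30-fold and 4.76-fold higher than in progenitors. Cyba, the partner subunit of Cybb in the membrane, was 1.69-fold and 2.46-fold of the progenitor level, and the small GTPase gene Rac2 1.42-fold and 1.74-fold. On the scale of the UMIs outside the granule lists, the log2 ratio to progenitors was 1.25 and 2.04 for Cyba and 1.00 and 1.53 for Rac2. All 5 oxidase genes outside these lists were past 2-fold higher there, where 386 of all 2857 genes were. Cybb is in the specific granule list and was left out.

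Cebpe was at 324 CPM in progenitors, 442 in precursors and 223 in non-cycling cells at 1 month, and at 239, 455 and 208 at 3 months. It was thus highest in the precursors in both libraries, 1.99-fold (1.88 to 2.10) and 2.19-fold (1.92 to 2.51) over non-cycling cells, but 1.36-fold over progenitors at 1 month, short of the 1.5-fold set for that call. On the scale of the UMIs outside the granule lists its log2 ratio to progenitors was 0.94 and 1.67, past that limit in both libraries. Hmgb3, a chromatin protein of progenitors, was 1 of 8 measured transcription factor genes past 2-fold over non-cycling cells in both libraries (9.95% of all genes were), at 89 against 14.5 CPM and 73.3 against 7.03. Irf8, the monocyte-directing factor, and Myb, the progenitor factor, were the 2 of 10 measured that were at least 2-fold lower than in progenitors in both libraries (26.5% of all genes were), at 25.7 against 91.3 and 15.3 against 75.5 CPM at 1 month and at 10.3 against 99.8 and 21.2 against 129 at 3 months. Gfi1, a repressor needed for granulocyte formation, was at 5.59 and 5.79 CPM against 19.8 and 29.1 in progenitors, and Cebpa at 7.20 and 5.79 against 32.9 and 46.6, both below the minimum level.

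Genes of ribosome assembly were lower in precursors than in progenitors. All 11 measured genes of this list were past 2-fold in this direction, against 26.5% of all 2237 genes. Of the 11, 3 had at least 50 CPM in precursors in both libraries. The others reached the minimum in at least 1 library only through the progenitors, so the count is a description. Their median log2 ratio was -2.10 and -2.99, against -0.51 and -0.75 over all these genes. Npm1, the nucleolar phosphoprotein, was at 297 against 1297 CPM and 163 against 1489.6, and Ncl, nucleolin, at 263 against 716 and 89.4 against 575. On the scale of the UMIs outside the granule lists, 9 of 11 were still past 2-fold (259 of all 2857 genes were) and the median was -1.61 and -2.25. Against non-cycling cells 0 of 3 measured genes were past 2-fold, where 9.95% of all genes were higher and 3.34% lower. The summed level was 912 against 572 CPM and 516 against 352. Of 6 measured nuclear lamina and envelope genes, Tmpo and Banf1 were past 2-fold over non-cycling cells, against the same 9.95% of all genes. Lmnb1, lamin B1, was at 0.552 and 0.462 times the non-cycling level. Lbr, the lamin B receptor, needed for the segmented nucleus, was at 170.04 and 202 CPM in precursors, 113 and 109 in non-cycling cells and 145 and 133 in progenitors.

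Against the cycling Elane Mpo progenitors as a whole, 113 of 2237 genes were at least 2-fold higher in precursors in both libraries and 592 lower. On the scale of the UMIs outside the granule lists the split turned, with 386 higher and 259 lower of 2857, and the median log2 ratio of the measured genes moved from -0.51 and -0.75 to 0.12 and 0.18. Of the genes called on the CPM scale, all 113 higher ones and 230 of the 592 lower ones kept their call. S phase genes were among those that moved: 5 of 17 were lower on the CPM scale (Mcm5, Mcm2, Mcm6, Hells, Rfc2) and 0 of 21 on the other, where their median was -0.14 and 0.14. G2/M genes had a median of 0.23 and 0.24 on the CPM scale and 0.82 and 1.08 on the other, where 8 of 35 were higher and 0 lower. Mki67 and Top2a of the rule are in this list, and their limit of 3 UMIs was the same in the deeper progenitors.

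The 10 genes with the largest ratios over progenitors were Ltf, St3gal5, Plbd1, Lcn2, Fpr2, Ifitm6, AA467197, Cd177, Ly6g and Orm1. St3gal5, the enzyme that makes the ganglioside GM3, was at 151 against 19.7 CPM at 1 month and 124 against 3.51 at 3 months. Plbd1, a phospholipase B-like enzyme, was at 180.2 against 26.2 and 156 against 5.52, and the interferon-induced membrane protein gene Ifitm6 at 1617 against 250.2 and 1198 against 61.2. AA467197 was at 363 against 57.1 and 253 against 8.03. Plbd1, Fpr2, Ifitm6, AA467197 and Ly6g were also past 2-fold lower than in non-cycling cells, so that they stood between the other groups. The ratios were larger at 3 months for all 10, and mesenchymal cells had a higher level at 1 month of all of them but St3gal5 (77.4 against 6.59 CPM of Ifitm6), the part of which was not tested. Of the progenitors, 266 of 612 at 1 month and 26 of 117 at 3 months passed the granule limit. The part of this make-up in the ratios was not tested either.

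Lower than in progenitors, apart from the genes of the rule, were most of all Prss34, Mcpt8, Cst7, Nkg7, BC035044, Gstm1, Ass1, Phgdh, Sdf2l1 and Calr. Cst7, a cystatin of cytotoxic and myeloid cells, was at 11.6 against 292 CPM and 14.8 against 338, and Nkg7, a granule membrane protein, at 77.7 against 975 and 87.5 against 1163. Gstm1, a glutathione transferase, was at 50.1 against 682 and 66.9 against 722. Phgdh, the first enzyme of serine synthesis, was at 16.1 against 169 and 5.79 against 238, and the arginine synthesis gene Ass1 at 6.39 against 67.1 and 3.22 against 132. The precursor levels of Phgdh and Gstm1 were below those of mesenchymal cells (76.4 and 21.5, and 63.8 and 99.9). Prss34 and Mcpt8 are basophil proteases, and their progenitor level came from few cells: at 3 months 1 cell held 99.9% of the 927 Prss34 UMIs and 94.9% of the 847 Mcpt8 UMIs.

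Few genes were highest in the precursors. By the limit of 1.5-fold over both other groups in both libraries, 9 of 1542 genes (0.584%) were, namely Cenpf, Cdkn3, Spc25, Fbxo5, Chil3, Mki67, Hmgb2, Ccnb2 and 3110079O15Rik, and Chil3 and Mki67 belong to the rule. The cycle genes among them follow the gate, since non-cycling cells were chosen for 0 UMIs of Mki67 and Top2a. Over progenitors, which met the same limit of 3 UMIs in deeper cells, Mki67 and Top2a together were 1.42-fold and 1.51-fold higher. Hmgb2, a DNA-bending chromatin protein, was at 1576 CPM in progenitors, 2576 in precursors and 828 in non-cycling cells at 1 month and at 1658, 3337 and 880.3 at 3 months. Cenpf, a kinetochore protein of late G2, was at 48.7, 113 and 7.94 CPM and at 39.6, 82.3 and 1.28, and Cdkn3, a phosphatase that acts on cyclin-dependent kinases, at 54.2, 106 and 13 and at 52.2, 147 and 7.67. Chil3 was at 2075, 11059.9 and 5938 and at 1124, 10494 and 5367, while Camp and Ngp, the other granule genes of the rule, were at 1.26 and 1.05 times the non-cycling level at 1 month and 1.24 and 1.04 times at 3 months. The gene 3110079O15Rik was at 2424 and 5903 CPM in mesenchymal cells, 5 precursors held 49% of its UMIs at 1 month and 80.4% at 3 months, and without mixed cells its log2 ratio to non-cycling cells was 0.15 and -0.12. Mixed cells here are those with over 200 UMIs per 10000 of erythroid genes or of mesenchymal genes, 46 of the precursors at 1 month and 6 at 3 months. Without the granule lists in the scaling, 88 genes were highest in precursors, with all 9 among them.

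The precursors differed among themselves along the same order. They were divided by their primary granule UMIs per 10000 into cells below 5 (171 at 1 month, 110 at 3 months), from 5 to 20 (704 and 20) and from 20 to 50 (77 and 11), a division that uses a gene set of the rule. The highest mesenchymal cell had 44.8 and 15.6 per 10000 and the median 5.78 and 0.727, and how much of the precursors' primary granule RNA is free RNA was not tested. Ms4a3 was higher in each next class, from 137 to 198 and 459 CPM at 1 month and from 150.5 to 444 and 717 at 3 months. Fcnb went from 612 to 859 and 1921 and from 768 to 2299 and 2753. Ltf went the other way, from 9405 to 8971 and 4867 and from 9732 to 6364 and 2520.2 CPM. Thus the precursors with the most primary granule RNA had the most Fcnb and Ms4a3 and the least Ltf in both libraries. Ly6g went from 533 to 229 CPM at 1 month and from 380.2 to 38.8 at 3 months, and Mmp9 from 202 to 101 and from 124 to 12.9.

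Camp was not lower in the class with the most primary granule RNA, going from 53728 to 53834 CPM at 1 month and from 61619 to 72232 at 3 months, whereas Ngp was lower in the class from 20 to 50 (58632 to 47146, and 62320 to 43509). The S phase list summed to 2327, 2395 and 3419.8 CPM at 1 month and to 1751, 2288 and 2384 at 3 months, and G2/M genes outside the rule to 8452, 8045 and 7279 and to 8729, 9172 and 8982. S phase genes were thus higher in the class from 20 to 50 than in that below 5 in both libraries, and for G2/M genes the libraries differed in direction. Median depth was 14550, 17781.5 and 22361 UMIs in the 3 classes at 1 month and 9435, 13935.5 and 13688 at 3 months, so depth moved with the division and its part was not tested.

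**Figure D4:**
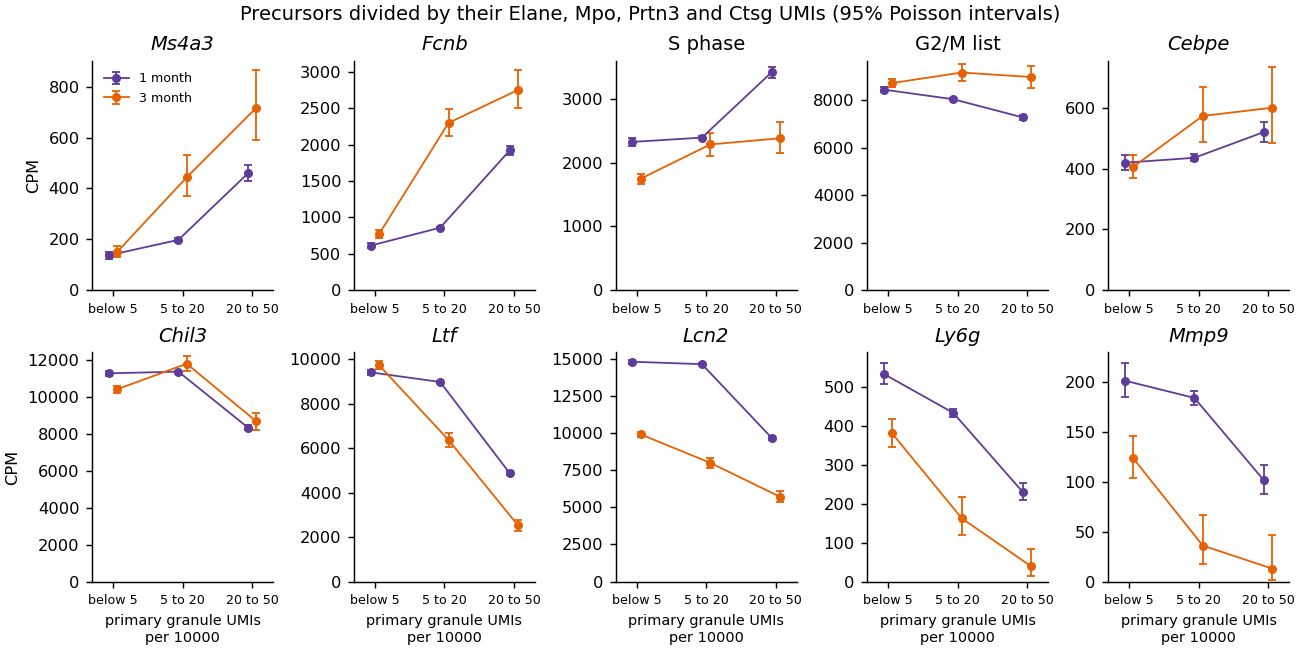
CPM in precursors divided by their Elane, Mpo, Prtn3 and Ctsg UMIs per 10000 (x axis), for 8 genes and the S phase and G2/M lists, in the 1 month (171, 704 and 77 cells) and 3 month (110, 20 and 11 cells) libraries with 95% Poisson intervals. Ms4a3 and Fcnb are higher to the right in both libraries, and Ltf, Lcn2, Ly6g and Mmp9 lower.

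Across single precursors thinned to 3000 UMIs, Spearman correlations over 952 and 140 cells are descriptions of cells that share a library. Ltf correlated with Ngp at rho 0.56 and 0.54 and with Chil3 at 0.42 and 0.36, and with the primary granule genes at -0.23 and -0.43. Chil3 correlated with the G2/M list outside the rule at 0.34 and 0.35, while the mature neutrophil list correlated with S phase genes at -0.34 and -0.22 and with Chil3 at -0.30 and -0.20. S phase and G2/M genes themselves were at -0.03 and -0.12. Depth before thinning correlated with Chil3 at -0.26 and -0.13 and with G2/M genes at -0.31 and -0.34, of the same size as most of these values.

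Between the ages, the precursors of 3 months had 37 of 1054 genes at least 2-fold higher than those of 1 month (3.51%) and 47 at least 2-fold lower (4.46%). These genes had at least 100 CPM in the higher library. On the scale of the UMIs outside the granule lists the split was 80 higher and 44 lower of 1727, and the median log2 ratio of all measured genes was 0.01 in place of -0.17. Camp was at 55600.2 CPM at 1 month and 63745 at 3 months and Chil3 at 11059.9 and 10494, and both belong to the rule that chose the cells. Outside the rule, Ltf was at 8627 and 8414 CPM and Cebpe at 442 and 455. Lcn2 was at 14188 and 9162 CPM and Cd177 at 509 and 850, each short of 2-fold. None of 7 S phase and none of 21 G2/M genes was past 2-fold, and their median log2 ratios were -0.13 and 0.10, next to that median of -0.17. Mmp8 of the specific granule list (280.2 and 109.98 CPM) and Retnlg of the mature neutrophil list (5419 and 1873) were lower at 3 months, as were Mpo and Ctsg of the rule. Mmp8 was at 1097 and 711 CPM in non-cycling neutrophils and 27.6 and 2.71 in mesenchymal cells, and Retnlg at 17293 and 9076 and at 724 and 98.4, so both were lower at 3 months in those cells too. S100a8 was at 105845 and 177286 CPM and S100a9 at 111944 and 104858. The transcription factor gene Klf2 was at 197 and 397 CPM, past 2-fold, against 295 and 513 in non-cycling cells and 814 and 654 in mesenchymal cells.

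Many of the largest ratios between the ages were shared by other cells of the libraries or rested on a few cells. Higher at 3 months were Col10a1, Timp3, Serpine2, Rps18-ps3, Cxcl12, Mmp13, Gm8797, Igfbp5, Chad and Rps27rt. Col10a1, the collagen of hypertrophic cartilage, was at 8.54 and 161 CPM, and 1 precursor held 225 of the 250 UMIs at 3 months. The mesenchymal genes Timp3, Serpine2, Cxcl12, Mmp13 and Igfbp5 had between 59.4% (Serpine2) and 79.8% (Timp3) of their 3 month precursor UMIs in 5 cells. The stromal chemokine gene Cxcl12 was at 90.9 and 491 CPM in precursors and at 161 and 1590.5 in non-cycling cells, and its log2 ratio between the ages in precursors was 2.45 without mixed cells and -0.38 without the cells of highest doublet score. Rps18-ps3, Gm8797 and Rps27rt are pseudogenes or near-copies of ribosomal and ubiquitin genes, share reads with their parents and are uncertain. Their log2 ratios were 2.45, 2.22 and 1.88 in precursors and 2.55, 1.88 and 2.13 in mesenchymal cells.

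Lower at 3 months were Hbb-bt, Car2, Hbb-bs, Hba-a1, Hba-a2, Hist1h2ap, Itgb2l, Col1a1, Mpo and Prdx2. The hemoglobin genes Hbb-bs and Hba-a1 were at 6345 and 2624 CPM in precursors of 1 month and at 929 and 574 at 3 months, where 1 cell held 85.1% of the Hba-a1 UMIs. Mesenchymal cells went from 3251 to 415 CPM of Hbb-bs. Hist1h2ap, a histone H2A gene transcribed in S phase, was at 185 and 49.5 CPM in precursors and at 205 and 63.7 in progenitors. Itgb2l, an integrin beta-2-like gene of neutrophils, was at 185 and 49.5 CPM in precursors and at 199.98 and 55 in non-cycling cells, with 5.57 and 0.185 in mesenchymal cells. Both genes were lower at 3 months in progenitors, non-cycling neutrophils and mesenchymal cells as well.

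**Figure D5:**
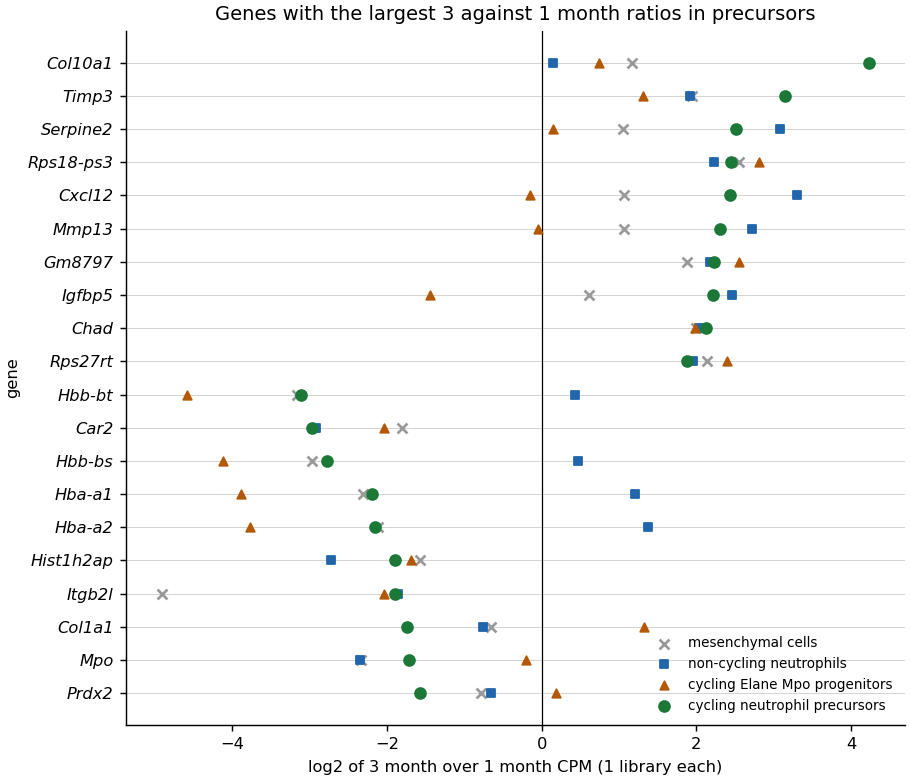
Log2 ratios of 3 month over 1 month CPM (x axis) for the 10 genes highest and the 10 lowest in precursors (rows), in precursors, non-cycling neutrophils, cycling Elane Mpo progenitors and mesenchymal cells of 1 library per age. Col10a1 stands apart in precursors, the 3 ribosomal and ubiquitin copies move alike in all 4 groups, and the hemoglobin genes lie left of 0 in precursors, progenitors and mesenchymal cells and right of it in non-cycling cells.

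Markers of other cell types were measured in the precursors as sums over whole lists. Chondrocyte genes (6 genes) summed to 591 and 742 CPM in precursors, 329 and 644 in non-cycling cells and 15452 and 22637 in mesenchymal cells, and osteoblast genes (6 genes) to 2316 and 2545 against 58848 and 56198. Erythroid genes (7 genes) summed to 11970.2 and 2019 CPM. Per cell the erythroid median was 32.4 and 3.30 UMIs per 10000 in precursors and 30.4 and 2.95 in mesenchymal cells, and 31 precursors at 1 month and 1 at 3 months were above 200. Monocyte genes summed to 1240.0 and 864 CPM, of which Ly6c2, also a neutrophil gene, made 1169 and 822. B cell genes summed to 186 and 74, marrow stroma genes to 124 and 562, macrophage genes to 191 and 163, basophil genes to 36 and 4.50, megakaryocyte genes to 32.9 and 16.1, endothelial genes to 15.6 and 10.3 and eosinophil genes to 4.73 and 3.22. T and NK cell genes were near 0, with 1.24 CPM at 1 month and 0 UMIs at 3 months.

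The reporter itself was present in the blood cells. The tomato transcript was at 2606 and 2205 CPM in precursors, 4022 and 3843 in non-cycling neutrophils, 1605 and 1164 in progenitors and 3216 and 3407 in mesenchymal cells. At 3000 UMIs, 99.2% and 97.1% of precursors had a tomato UMI, and all had one before thinning. The tomato UMIs were spread over the cells, and the highest cell held 0.505% and 2.48% of them. Erythroid UMIs were also in every precursor at 1 month, with 16.3 per 10000 in the lowest cell and a median of 32.4. At 3 months the lowest cell had 0. The share of the tomato RNA that is free RNA was not tested. Scrublet called 4.21% of cells at 1 month and 1.75% at 3 months as doublets, and the 8% of cells with the highest scores included 14.4% and 12.8% of precursors. The libraries of 1 and 3 months shared 49 cell barcodes, and 0 of them were precursors in both.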

How the data were processed

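Single-cell libraries of Td-sorted endosteal marrow cells, 1 per age, were made on the 10x platform. The authors deposited UMI counts per gene and cell, not normalized, and the submitters' processing notes name Cell Ranger 3.0.2, the build mm10 and Seurat 2. Counts were read as deposited with Python 3.11.15, numpy 2.4.6, scipy 1.17.1, pandas 2.3.3 and scanpy 1.11.5 (Scrublet). The filter on cells was 200 to 6000 detected genes with no more than 5% of UMIs from mitochondrial genes. UMIs were summed over the cells of a group and library and given as CPM with exact Poisson intervals, ratios with exact conditional intervals and shares with exact Clopper-Pearson intervals, all at 95% and covering counting error only. A count of 0 was set to 3 counts before a ratio. A gene was called at 2-fold in both libraries with at least 50 CPM in the higher group (100 CPM between ages), and as highest at 1.5-fold. Each age had 1 library, so no p-value is given. Doublets were scored but not removed. Comparisons across depths used cells thinned to 3000 UMIs, without shallower cells, of which there was 1 among the precursors. The programs were tested on simulated data.

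The members, gene lists and comparisons were chosen with earlier results of these data known. Named were genes of the granule, oxidase, transcription factor and cyclin lists, the 10 largest ratios in each direction per comparison ranked by the smaller of both libraries, all genes highest in precursors, the reporter, and sums of marker lists. Other S phase, G2/M, receptor, lamina, ribosome and calgranulin genes named, and the mesenchymal reference group were chosen after their values were seen. Alternatives changed the gates, the mitochondrial and gene limits, depth, doublets, cells with markers of other types, the weighting of cells and the minimum level. The 600 per 10000 granule limit, the removal of mixed cells and the scaling without granule genes were chosen after seeing the data. Promoters came from RefSeq tables of GRCm38.p6, with 300 bases per listed start, and a gene counted as holding a motif where any of its windows did. An item of the lists is not reported here.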

Additional observations from a re-analysis of the deposited data

Results flagged for a closer look

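The same rule found 7 cycling neutrophil precursors in the 1.5 month library and 62 in the 16 month library, which the comparisons did not use. They were counted because these libraries lie outside the main measurement. The 62 cells were among 225 granule-gated cells and the 7 among 27. Ltf was at 6105 CPM in the 7 cells and 5967 in the 62, and Cebpe at 501 and 428. Col2a1, the cartilage collagen gene, was at 6246 CPM in the 7 cells and 0.714 in the 62.

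The ratio of precursors to non-cycling neutrophils was past 2-fold in opposite directions in the 1 and 3 month libraries for 5 genes. On the log2 scale it was 1.46 at 1 month and -2.08 at 3 months for Hbb-bt, 1.54 and -1.71 for Hbb-bs, 1.65 and -1.75 for Hba-a1, and 1.46 and -2.07 for Hba-a2, the hemoglobin genes. For BC100530, a stefin-like gene with near-identical copies, it was -1.44 and 1.50. With 1 library per age the difference was not tested. Without mixed cells the hemoglobin ratios were between -0.09 and -0.03 at 1 month and between -0.85 and -0.45 at 3 months, and those of BC100530 were -1.50 and 1.41. At 3 months 1 precursor held 80% of the Hbb-bt UMIs and 1 held 53.5% of the BC100530 UMIs.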

How the results depend on the processing

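Precursors were 41.9% of granule-gated cells at 1 month and 32.1% at 3 months with at least 2 Mki67 and Top2a UMIs, and 34.5% and 15.0% with at least 5, where 82 precursors were left at 3 months. The 1 month share was 41.1% at a granule limit of 300 per 10000, 44.4% at 600 and 35.7% with primary granule genes below 20, and the 3 month share was 35.0% with at least 1000 genes. With cells thinned to 3000 UMIs before the gates, 260 and 31 precursors were left, 10.6% and 6.22% of granule-gated cells. Without cells holding over 20 UMIs per 10000 of another type's markers, 6 precursors were left at 1 month and their share was 46.2%, and free RNA alone exceeded this limit there (erythroid median 30.4 in mesenchymal cells). The gene comparisons were not run under these last 2 settings because a group held too few cells. With the lower minimum level, which tests more genes, 355 genes were higher and 92 lower than in non-cycling cells, 191 higher and 1027 lower than in progenitors, 20 highest in precursors, and 67 higher and 93 lower at 3 months. Without granule genes in the scaling, the counts were 268 and 89, 386 and 259, 88, and 80 higher at 3 months. Weighting cells alike gave 15 genes highest in precursors, and leaving out the highest doublet scores gave 19 genes higher at 3 months.

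Of 1584 values of named genes over 12 settings, 1561 kept their direction and size, 16 moved and 7 reversed. The log2 ratio of 3110079O15Rik to non-cycling cells at 3 months was -0.48 with at least 5 UMIs, -0.68 without the highest doublet scores and -0.12 without mixed cells, and its ratio to progenitors was -0.18 without the highest doublet scores. Under that setting the log2 ratio of Prss34 to progenitors at 3 months was 2.52, since 1 UMI was left in progenitors, and those of Cxcl12 and Igfbp5 between ages were -0.38 and -0.74. The cause of the other reversals was not tested. No paired analysis was possible because each age had 1 library. The 141 precursors at 3 months held 1554778 UMIs in all, which limits what could be measured of genes with few CPM.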
